A study of Mus musculus with 474 samples.

Results

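The insulin-like growth factor (IGF) axis was followed in mouse skeletal muscle through 7 genes: the ligand Igf1, the receptor Igf1r and the binding proteins Igfbp3, Igfbp4, Igfbp5, Igfbp6 and Igfbp7. They were taken by gene symbol and not by a cut on measured values, though earlier results of these data were known. They make up 7 of the 20612 genes deposited. All 7 were among the 18823 genes that passed the filter on low counts and were tested. The libraries came from female and male Diversity Outbred (DO) mice, an outbred stock bred from 8 inbred founder strains in which each animal is genetically unique. All mice were fed a high-fat, high-sugar (HFHS) diet labelled as 45 percent fat, and there was no group on another diet. The sample titles place them in generations 17, 18, 19, 21 and 23, with 48, 45, 49, 46 and 47 females and 46, 48, 50, 47 and 48 males in that order, where reading the third title field as the generation is an assumption, since the study's methods name only some of these generations. Each library carries its own mouse number, and the relatedness between mice was not modelled.

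IGF1 is made by the liver under growth hormone and also locally in muscle, where it acts through the IGF1 receptor on the growth and repair of muscle fibres. Most IGF outside cells is held by binding proteins, which limit its access to the receptor until proteases release it. In muscle tissue the axis is spread over several cell types, with binding proteins made by fibres, by connective tissue cells and by the cells of blood vessels. In bulk tissue, fewer cells of a type and less RNA per cell cannot be told apart.

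The summed counts were 35.9 to 165.7 M (M, 10 to the power 6) per library, with a mean of 81.5 M ± 16.2 (SD over all mice), where both mates of a read pair were counted. Summed myofibre markers were at least 81550 CPM (counts scaled to a library of 1 M) in every library. Of the 6 hepatocyte markers only Alb, the albumin gene, was among the genes tested. Its median was 0.189 CPM in females and 0.142 in males, but 1 female library stood apart at 763.4 CPM, and the next highest, a male, was at 19.8 CPM. Igf1 in that female library was at 19.2 CPM, above 75.3% of females, and Igfbp4 at 48.02 CPM, above 96.6%, while Igfbp3 was at 8.67 CPM, above only 4.26%. The other 4 genes were above 30.6 to 72.8% of females. Over all mice Alb had r = 0.24 with Igfbp4, 0.18 with Igf1, 0.16 with Igfbp7 and 0.14 with Igfbp3 after sex and generation, and 0.23, 0.17, 0.17 and 0.20 without the 4 libraries with Alb at 10 CPM or more. For the other 3 genes r lay between -0.02 and 0.02 both ways. Leaving out those 4 libraries, an alternative chosen after the data were seen, changed no call of the 7 genes or of their pairs in any comparison below. Female and male muscle differed in their markers by the test given below. All 7 slow-fibre genes were lower in males (sums 573.3 to 9224 CPM in females, 821.9 to 7591 in males). All 6 endothelial genes were higher (148.8 to 332.3 and 163.4 to 329.4 CPM), and 5 of 6 adipocyte genes were lower (12.97 to 624.05 and 7.67 to 264.7 CPM). All 5 pericyte and smooth muscle genes were higher. Of 6 tenocyte genes 4 were lower and 1 higher, and 0 of 6 macrophage genes passed. Over all genes tested, 30.6% were lower in males and 24.4% higher. In 5 libraries, 3 labelled female and 2 labelled male, the level of either Xist or the Y-linked gene Ddx3y, but not of both, departed from the labelled sex. Without those 5 libraries all 7 sex calls and both generation calls below remained.

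RefSeq promoters (GRCm38.p6) were found for 7 of 7 genes. The 250 bases before the start site are shown for the 5 genes in the 3 pairs that varied together most between mice, Igf1 with Igfbp5 and Igfbp7 with Igfbp4 and Igfbp6. Capitals mark matches on either strand to 5 motifs, none of which overlapped another here. The TATA box was searched as TATAAA. The GC box was searched as GGGCGG. The CCAAT box was searched by those letters. The core bound by STAT5, the factor that growth hormone activates, was searched as TTCNNNGAA. The core bound by steroid receptors was searched as TGTTCT.
Igf1 (chr10:87860861-87861110, plus strand): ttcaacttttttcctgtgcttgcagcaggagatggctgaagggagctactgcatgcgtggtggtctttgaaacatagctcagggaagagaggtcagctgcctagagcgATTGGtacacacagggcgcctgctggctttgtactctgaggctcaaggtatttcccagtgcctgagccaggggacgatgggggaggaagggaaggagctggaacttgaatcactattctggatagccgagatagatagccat
Igfbp5 (chr1:72874866-72875115, minus strand): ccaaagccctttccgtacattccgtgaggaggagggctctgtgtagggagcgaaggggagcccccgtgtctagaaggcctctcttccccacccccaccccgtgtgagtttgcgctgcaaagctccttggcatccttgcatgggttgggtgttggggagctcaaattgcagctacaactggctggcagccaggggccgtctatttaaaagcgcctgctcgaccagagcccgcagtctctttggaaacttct
Igfbp4 (chr11:99040994-99041243, plus strand): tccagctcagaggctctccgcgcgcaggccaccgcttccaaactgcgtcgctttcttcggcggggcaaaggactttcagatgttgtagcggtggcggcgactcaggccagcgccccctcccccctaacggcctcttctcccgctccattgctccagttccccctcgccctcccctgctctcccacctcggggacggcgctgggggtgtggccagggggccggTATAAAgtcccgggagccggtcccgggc
Igfbp6 (chr15:102143936-102144185, plus strand): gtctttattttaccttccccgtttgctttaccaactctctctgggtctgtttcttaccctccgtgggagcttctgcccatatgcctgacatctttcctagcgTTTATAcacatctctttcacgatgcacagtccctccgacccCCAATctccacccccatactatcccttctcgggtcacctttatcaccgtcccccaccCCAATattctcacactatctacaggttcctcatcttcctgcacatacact
Igfbp7 (chr5:77408046-77408295, minus strand): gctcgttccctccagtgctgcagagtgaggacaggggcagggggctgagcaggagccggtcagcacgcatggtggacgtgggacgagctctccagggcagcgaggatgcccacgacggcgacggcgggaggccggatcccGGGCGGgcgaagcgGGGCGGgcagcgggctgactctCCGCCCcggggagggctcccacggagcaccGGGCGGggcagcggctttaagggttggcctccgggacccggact
Igfbp7 held 4 GC box matches. Igfbp4 held 1 TATAAA match, on the gene's own strand at position -28 from the start site. Igfbp6 held 1 TATAAA match, on the opposite strand at position -148, and 2 CCAAT matches. Igf1 held 1 CCAAT match and Igfbp5 held none of the 5 motifs. In the other two windows, Igf1r held 2 GC box matches and Igfbp3 held no match. Neither the STAT5 core nor the steroid receptor core was found in any of the 7 windows. Over all 32851 promoters of 300 bases, which run to 50 bases past the start, the GC box was in 35.7%, the CCAAT box in 37.4%, the TATA box in 13.6%, the steroid receptor core in 19% and the STAT5 core in 8.3%. The GC content was 52.3% for Igf1, 56.3% for Igfbp5 and 49.7% for Igfbp6, against 73.3% for Igfbp7 and 71.3% for Igfbp4, with a median of 52.7% over all promoters. The RefSeq start of Igf1 lay 2846 bases inside the gene from the start given with the data, so its window is that of a downstream start. The RefSeq start lay upstream of the deposited start for Igfbp6, and at most 19 bases away for Igfbp4, Igfbp5 and Igfbp7.

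The genes differed widely in level. Per kilobase of exon (CPM divided by the summed exon length), Igfbp5 had a mean level of 121.3 CPM per kb, followed by Igfbp7 at 22.4, Igfbp6 at 21.5, Igfbp4 at 8.58, Igfbp3 at 4.28, Igf1 at 1.98 and Igf1r at 1.59. Igfbp5 RNA was thus the most abundant of the axis genes, and by mean CPM it stood at percentile 99.4 of all genes tested. Igf1 and Igfbp5 varied most between mice, with a residual SD after sex and generation of 0.468 and 0.494 on the variance-stabilised (VST, close to log2) scale, at percentiles 93.2 and 94.1 of all genes tested. Igfbp7 varied least (0.209).

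**Figure D1:**
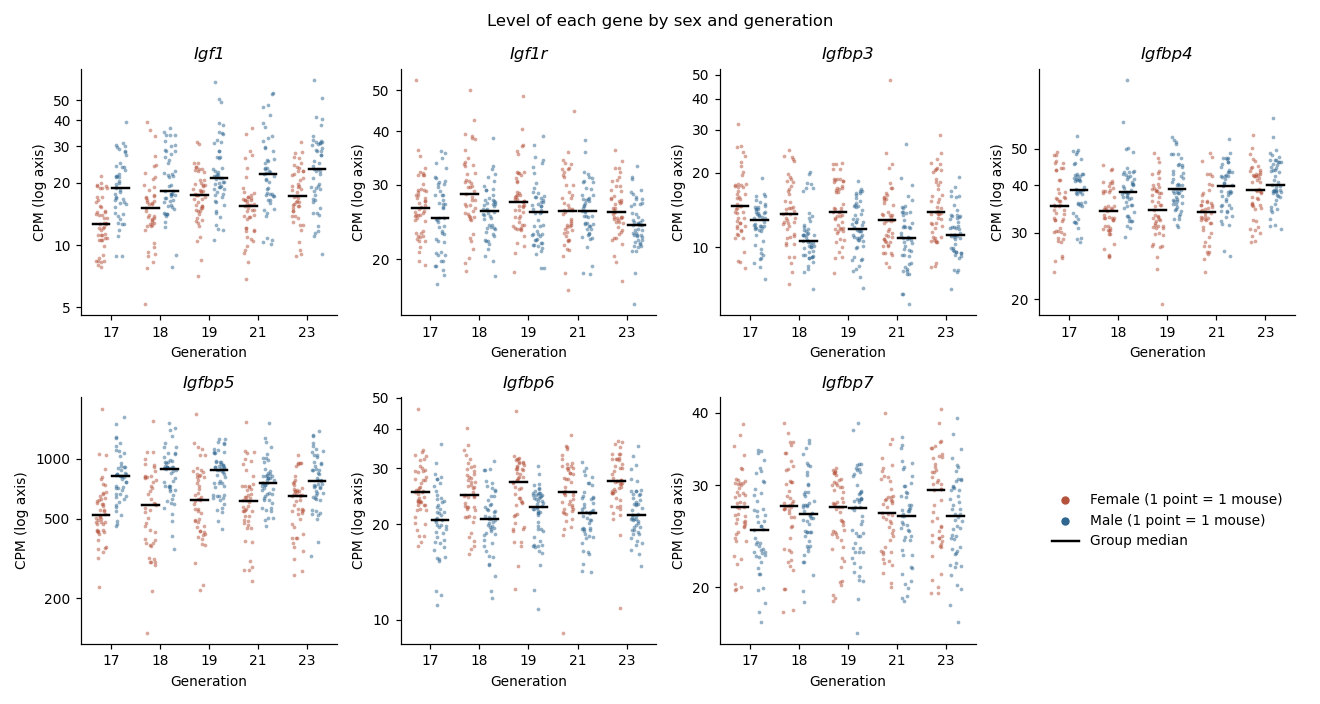
Level of each of the 7 genes in CPM (log axis) by generation, with 1 point per mouse (females left and red, males right and blue) and the group median as a bar. For Igf1, Igfbp4 and Igfbp5 the male bar is above the female bar in all 5 generations, and the points of the sexes overlap for every gene.

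Igf1, the ligand (ENSMUSG00000020053, chr10:87858265-87937042, plus strand, GRCm38), was higher in males. Its level was 5.22 CPM in the lowest female, 15.6 in the median female and 39.1 in the highest. In males the lowest, median and highest were 7.80, 20.96 and 62.6 CPM. The ranges overlapped over most of their length, but 79.5% of males were above the female median and 17.9% of females were above the male median. Mean levels were 16.4 ± 5.77 CPM (SD) over all females and 22.8 ± 9.46 CPM (SD) over all males, a log2 difference, male minus female, of 0.48 (SE 0.047, adjusted p = 2e-20). Adjusted p values of differences are from edgeR's quasi-likelihood test with Benjamini-Hochberg adjustment over all genes tested, with 0.05 as the threshold. Between the lowest and the highest mouse the level differed 12.01-fold. An antisense gene, Igf1os, overlaps Igf1 and had a mean of only 0.0389 CPM.

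Igf1r, the receptor through which Igf1 acts (ENSMUSG00000005533, chr7:67952827-68233668, plus strand), went the other way by a small amount. Female mice had 16.985, 26.7 and 52.9 CPM and males 15.7, 25.3 and 39.1 CPM as lowest, median and highest levels, so nearly the whole male range lay inside the female range. The log2 difference was -0.10 (SE 0.023, adjusted p = 5.75e-05), and 62.98% of females were above the male median.

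Of the binding proteins, Igfbp5 and Igfbp4 were higher in males. Igfbp5, a binding protein that muscle cells make as they differentiate (ENSMUSG00000026185, chr1:72857932-72874884, minus strand), was at a lowest, median and highest level of 134.2, 589.3 and 1783 CPM in females and 323.1, 816.3 and 1623 CPM in males. The highest and the lowest level both came from females. The log2 difference was 0.42 (SE 0.045, adjusted p = 1.13e-17), with 86.2% of males above the female median. Igfbp4, which restrains IGF action until it is cleaved by pappalysin (ENSMUSG00000017493, chr11:99041244-99054392, plus strand), was at 19.5, 35.2 and 54.2 CPM in females and 26.1, 39.1 and 75.9 CPM in males. Its log2 difference was smaller, 0.16 (SE 0.021, adjusted p = 5.16e-13), and again 79.1% of males were above the female median.

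Igfbp3 and Igfbp6 were lower in males. Igfbp3, the main IGF carrier in blood plasma (ENSMUSG00000020427, chr11:7206086-7213923, minus strand), was at 7.11, 13.8 and 47.8 CPM in females and 5.9, 11.6 and 26.3 CPM in males. Its log2 difference was -0.31 (SE 0.036, adjusted p = 2.2e-15), and 74.9% of females were above the male median. Igfbp6, a binding protein that prefers IGF2 over IGF1 (ENSMUSG00000023046, chr15:102144362-102149511, plus strand), was at 9.1, 26.1 and 46.2 CPM in females and 10.8, 21.6 and 35.7 CPM in males. The log2 difference was -0.28 (SE 0.028, adjusted p = 3.77e-20), with 81.7% of females above the male median.

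Igfbp7, a protein with low affinity for IGFs that is made in vessel walls (ENSMUSG00000036256, chr5:77349240-77408041, minus strand), differed least. It was at 18.1, 27.5 and 40.6 CPM in females and 16.7, 26.5 and 39.1 CPM in males, and the ranges nearly coincided. The log2 difference was -0.05 (SE 0.022, 95% interval -0.09 to -0.01, adjusted p = 0.0385). With the marker scores as covariates it was -0.05 with adjusted p = 0.0507. Igfbp7 overlaps Polr2b (54.3 CPM) on the opposite strand, and the use of strand in counting is not given in the sources used here.

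All 7 genes thus passed the test between the sexes, 3 higher and 4 lower in males, where 55% of all genes tested passed it, 24.4% higher and 30.6% lower. With at least a 1.3-fold difference, 2 of the 7 passed (Igf1 and Igfbp5), against 10.6% of all genes. The median size of the log2 difference was 0.28 over the 7 genes and 0.09 over all genes tested. Within single generations (45 to 50 mice per sex) the sex difference of Igf1, Igfbp3, Igfbp5 and Igfbp6 passed in 5 of 5. Igfbp4 passed in 4, Igf1r in 2 and Igfbp7 in 0, where 23.3 to 27.6% of all genes passed in a single generation, and Igfbp7 changed sign in generation 19 (0.01). With the scores of 6 marker lists as covariates, Igf1 differed by 0.57 and Igfbp4 by 0.21, slightly more than without them, and Igfbp3 by -0.25.

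**Figure D2:**
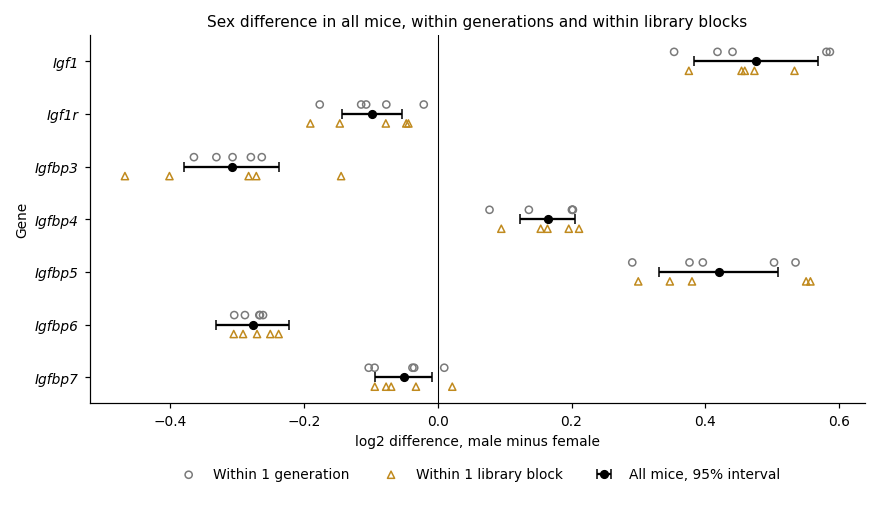
The log2 difference, male minus female, of each gene in all mice (black point with its 95% interval), within each generation (circles) and within each library block (triangles). Igf1 and Igfbp5 lie to the right of 0 at every point, Igfbp3 and Igfbp6 to the left, and Igfbp7 lies on both sides.

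Ordering the 10 groups of sex and generation by mean level gave a full split by sex for 6 of the 7 genes. How many of all tested genes split this way was not counted, and 55% of them passed the test between the sexes. All 5 male groups were above all 5 female groups for Igf1, Igfbp4 and Igfbp5. All 5 female groups were above all 5 male groups for Igf1r, Igfbp3 and Igfbp6. For Igfbp7 the groups were mixed, with 1 male group among the highest 5. The group means ran from 13.3 CPM (females, generation 17) to 24.8 CPM (males, generation 23) for Igf1, and from 580 CPM (females, generation 17) to 869 CPM (males, generation 18) for Igfbp5. No 2 neighbours in the order of any gene differed by more than the SD between mice. The largest step between neighbours was 0.646 SD (Igfbp6, between the sexes).

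Across generations, 2 of the 7 genes passed the test, against 7.56% of all genes. Igf1 was lowest in generation 17 and highest in generation 23, a log2 range of 0.39 (adjusted p = 0.000113). In females its mean was 13.3 ± 3.68 CPM in generation 17 (SD, n = 48) and 18.2 ± 5.38 CPM in generation 23 (SD, n = 47). In males the means were 19.9 ± 6.63 CPM (SD, n = 46) and 24.8 ± 10.5 CPM (SD, n = 48). Igfbp4 had a log2 range of 0.12, lowest in generation 21 and highest in generation 23 (adjusted p = 0.0257). The generation difference of Igfbp4 did not pass with the marker scores as covariates (0.07, adjusted p = 0.364), and those lists varied over generations too, 3 of 6 adipocyte and 3 of 6 macrophage genes passing. Their part in the result was not tested further. Both genes passed within females alone, where 2.85% of all genes did, and neither within males alone, where 2.81% did, or within any 1 library block, where at most 0.967% did. Whether the generation difference itself differed between the sexes is the interaction given next. The diet and tissue labels were shared by all generations, and generation cannot be told apart from whatever else changed between the cohorts of mice.

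The sex difference was not shown to vary between generations for any gene. The interaction passed for 0 of the 7 genes in edgeR, and for 0 in both DESeq2 and limma, with 0 below an unadjusted p of 0.05. The smallest unadjusted p was 0.234 (Igfbp4), and 0.531% of all genes passed.

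The library numbers in the titles fall into 5 blocks of 91 to 96 consecutive numbers. What a block shares is not given in the labels. After sex and generation, 5 of the 7 genes differed between blocks, where 47.4% of all genes did. Igfbp7 differed most (log2 range 0.39, adjusted p = 3.76e-36). Its level in block 1 was 16.7, 22.6 and 30.7 CPM (lowest, median and highest of 96 mice), and in block 3 it was 19.1, 29.6 and 40.6 CPM. Block accounted for 19.5% of the variance of its VST score and sex for 1.68%. For Igfbp5 the order was the opposite, 19.2% with sex and 0.466% with block, and Igf1 had 15.2% with sex, 5.25% with generation and 3.02% with block. Igfbp6, Igf1r, Igfbp4 and Igf1 also passed, with log2 ranges of 0.13 to 0.24. Igf1 (adjusted p = 0.0155) did not pass with total-count scaling (0.21, adjusted p = 0.0537). Igfbp3 and Igfbp5 did not pass (adjusted p = 0.7 and 0.417).

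**Figure D3:**
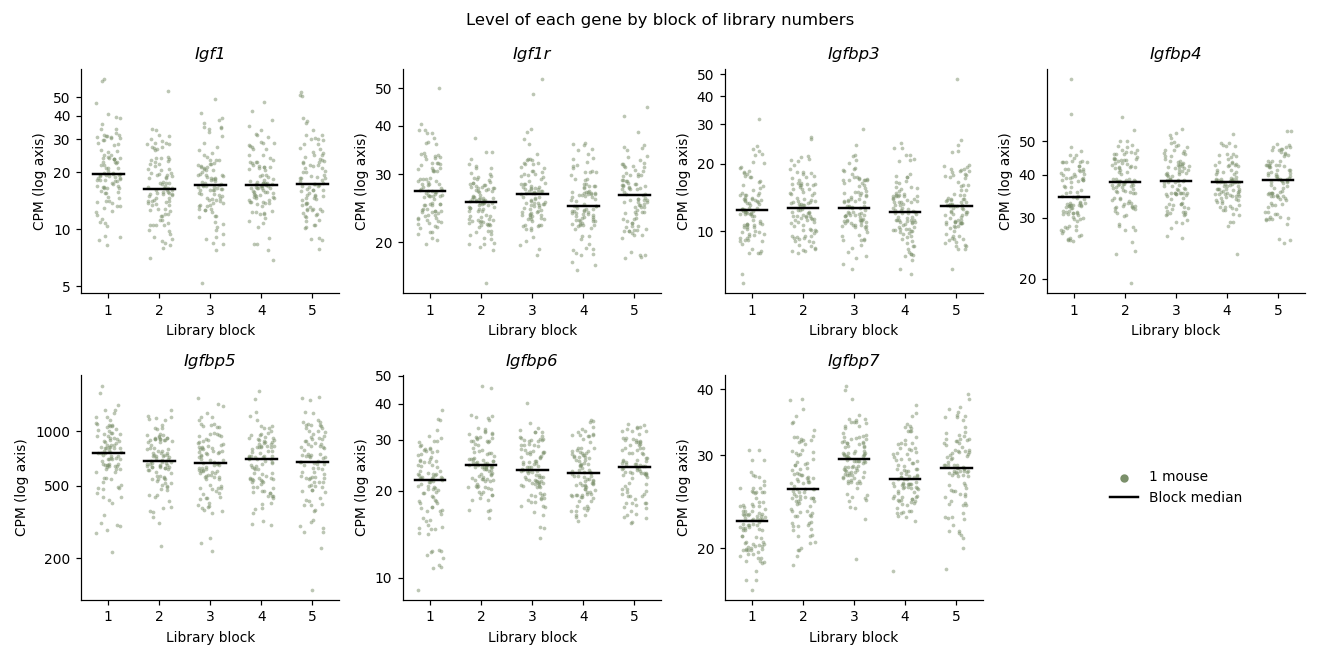
Level of each gene in CPM (log axis) by block of library numbers, with 1 point per mouse and the block median as a bar. Igfbp7 sits lowest in block 1, with a median of 22.6 CPM, and highest in block 3, at 29.6 CPM.

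The sex difference held within the blocks for most genes. Igf1, Igfbp5 and Igfbp6 passed in 5 of 5 blocks, Igfbp3 and Igfbp4 in 4, Igf1r in 2 and Igfbp7 in 1, where 19.4 to 28.6% of all genes passed in a single block. The log2 difference ranged over blocks from 0.38 to 0.53 for Igf1, from 0.30 to 0.56 for Igfbp5 and from -0.47 to -0.15 for Igfbp3. Igfbp7 changed sign in block 5 (0.02).

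Some genes also differed between the sexes in how far mice lay from one another. The mean absolute distance from the median of the mouse's own group was 0.435 VST units in females and 0.313 in males for Igfbp5 (difference -0.12, SE 0.029, adjusted p = 0.00143, limma). For Igfbp3 it was 0.296 and 0.232 (difference -0.06, SE 0.020, adjusted p = 0.034). The opposite direction was seen for Igf1, at 0.319 in females and 0.399 in males, but it did not pass (difference 0.08, SE 0.027, adjusted p = 0.0552). In all, 2 of the 7 genes passed, where 5.37% of all genes did. On the log2 CPM scale Igfbp5 passed (adjusted p = 0.00156) and Igfbp3 did not (adjusted p = 0.0883).

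The 21 pairs of genes were then compared over all mice by Pearson's r and Spearman's rho on VST scores with sex and generation taken out. A 2-sided permutation test gave an adjusted p under 0.05 for 16 of the 21 pairs by r and for 13 by rho. Of the 16 pairs, 10 were positive and 6 negative. All r of 0.102 or more in size passed, and 38.2% of the correlations between one of these genes and any tested gene reached that size. Leaving out the 2 mice farthest from the median of the first gene moved no r by more than 0.031, but the smallest called r, of Igfbp5 with Igfbp7 (0.10, adjusted permutation p = 0.0343), did not pass without them (0.08, adjusted permutation p = 0.121) or on log2 CPM (0.08, adjusted permutation p = 0.104).

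Igfbp4, Igfbp6 and Igfbp7 went together. Igfbp4 and Igfbp7 had r = 0.41 (rho = 0.41, adjusted permutation p = 3e-05 for r and 3.5e-05 for rho, from the smallest p that 100000 permutations can give, 1e-05). Without the 2 farthest mice r was 0.41, and within blocks it ran from 0.27 to 0.44. Igfbp6 and Igfbp7 had r = 0.35 (rho = 0.34, the same adjusted p values), 0.33 without the 2 farthest mice and 0.23 to 0.40 within blocks. Igfbp4 and Igfbp6 had r = 0.22 (rho = 0.24, the same adjusted p values), 0.23 without the 2 farthest mice and 0.15 to 0.25 within blocks. The r of Igfbp4 and Igfbp6 was 0.06 (adjusted permutation p = 0.21) without adjustment for sex and generation, and 0.10 (adjusted permutation p = 0.0462) with 6 marker scores taken out as well. Within sex and generation, mice with more RNA of one of these genes thus tended to have more of the other two.

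The ligand went together with Igfbp5. Igf1 and Igfbp5 had r = 0.35 (rho = 0.33, adjusted permutation p = 3e-05 for r and 3.5e-05 for rho), 0.36 without the 2 farthest mice and 0.20 to 0.43 within blocks. The r was 0.45 in females and 0.27 in males. A test of that difference gave an unadjusted permutation p = 0.0252 and an adjusted p = 0.529 over the 21 pairs. It was the 1 pair below an unadjusted 0.05, and 0 of the 21 passed after adjustment. The receptor went against both: Igf1r and Igfbp5 had r = -0.31 (rho = -0.26, adjusted permutation p = 3e-05 and 3.5e-05), and Igf1 and Igf1r had r = -0.17 (rho = -0.18, adjusted permutation p = 0.00063 and 0.00027). Without the 2 farthest mice these were -0.30 and -0.16, and within blocks they ran from -0.42 to -0.03 and from -0.36 to -0.14.

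**Figure D4:**
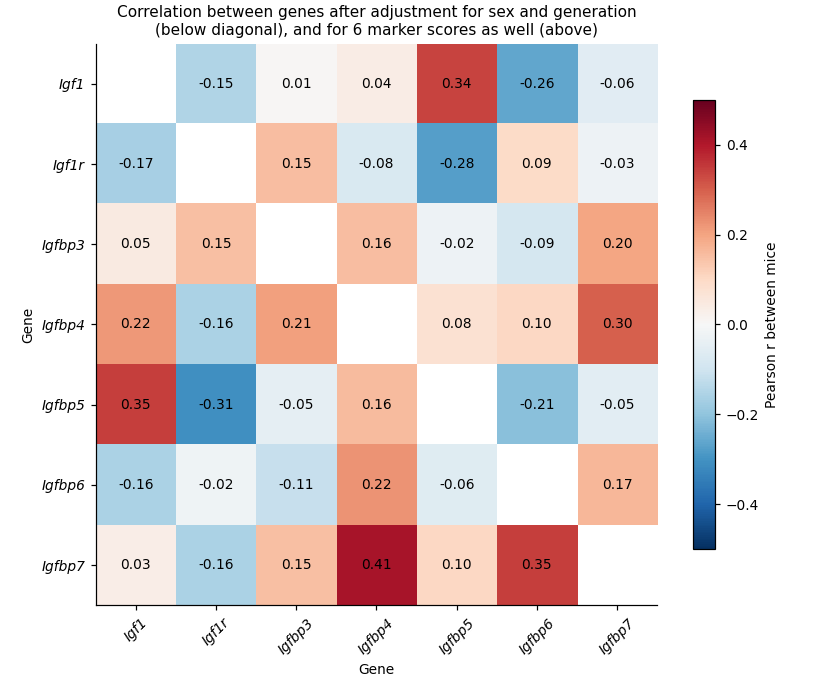
Pearson r between genes over all mice, with sex and generation taken out (below the diagonal) and with 6 marker scores taken out as well (above the diagonal), from blue (negative) to red (positive). Igf1 with Igfbp5 is 0.35 below and 0.34 above the diagonal, and Igf1 with Igfbp4 is 0.22 below and 0.04 above.

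Marker genes of other cell types moved with some of the genes. Over all mice, after sex and generation, Igfbp4 had r = 0.49 with the macrophage score and 0.48 with the adipocyte score. Igfbp7 had r = 0.43 with the endothelial score, 0.37 with the pericyte and smooth muscle score and 0.32 with the tenocyte score. Igfbp6 had r = 0.33 with the tenocyte score and 0.32 with the Schwann cell score, uneven within blocks (0.06 to 0.41 and 0.10 to 0.43). Igf1 had r = 0.27 with the adipocyte score, 0.26 with the fibro-adipogenic progenitor score and -0.36 with the myofibre score. These scores share their libraries with the genes. The share of mitochondrially encoded counts moved with the genes as well, at r = -0.41 for Igfbp6, -0.34 for Igfbp7 and 0.31 for Igf1. Within blocks these ran from -0.63 to -0.14, from -0.41 to -0.09 and from -0.01 to 0.44. Of the marker lists, 6 were used as covariates (slow fibre, adipocyte, fibro-adipogenic progenitor, endothelial, tenocyte and macrophage). The 6 scores together took 36.9% of the remaining variance of Igfbp7 and 34.8% of that of Igfbp4, but 13.7% of that of Igf1, 10.4% of that of Igfbp5 and 6.72% of that of Igf1r.

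With these 6 scores taken out, some pair correlations shrank and others did not. Igf1 with Igfbp5 was 0.34, Igf1r with Igfbp5 -0.28 and Igfbp4 with Igfbp7 0.30. Igfbp6 with Igfbp7 was 0.17, Igf1 with Igfbp4 0.04 and Igfbp5 with Igfbp7 -0.05. Igf1 with Igfbp6 went further from 0, from -0.16 to -0.26, and Igfbp5 with Igfbp6, which had not passed at -0.06, went to -0.21 (adjusted permutation p = 8.4e-05). The r of Igf1 with Igfbp6 before this step was uneven over blocks, from -0.42 in block 1 to 0.10 in block 3 with a positive sign in 2 of 5, and its rho of -0.09 did not pass (adjusted permutation p = 0.0612).

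Over all tested genes, the 3 whose VST scores were most like those of each gene between mice, and the 1 most opposed, were found by r over the same mice. The 3 genes most like Igf1 were Socs2 (r = 0.52), Zfp933 (0.51) and Tgfbr2 (0.50), a TGF-beta receptor. Socs2, a feedback inhibitor of growth hormone signalling, lies on the same chromosome as Igf1 (chr10:95385362-95417180). The part of their positions in this r was not tested. The gene most opposed to Igf1 was Mef2d (-0.50), a muscle transcription factor. For Igf1r the 3 genes were Dnm3 (0.57), a dynamin, Ddi2 (0.54) and Slc43a1 (0.54), an amino acid transporter, and the most opposed was Ykt6 (-0.43), a membrane fusion protein. For Igfbp5 they included Angptl2 (0.48) and Ddit4l (0.47), an inhibitor of mTOR signalling, with Lrrc2 (-0.44) most opposed.

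For Igfbp3 the 3 genes were Sult1a1 (0.52), a sulfotransferase, Ifngr1 (0.51), an interferon receptor, and Doc2b (0.48), a calcium sensor of exocytosis, with Ret (-0.40) most opposed. For Igfbp6 they were Pcolce (0.59) and Bmp1 (0.55), both of which act in procollagen processing, and Gsn (0.54), which severs actin filaments, with U2surp (-0.52) most opposed. For Igfbp7 they were Scarf2 (0.60), Cavin3 (0.59), a caveola protein, and Ptms (0.59), with Prkaa2 (-0.53), a catalytic subunit of AMPK, most opposed. For Igfbp4 they were Apoe (0.51), C4b (0.51), a complement component, and Vim (0.50), an intermediate filament protein, with Txlnb (-0.36) most opposed. With the 6 marker scores taken out the r of these 3 with Igfbp4 were 0.25, 0.14 and 0.19, while Socs2 with Igf1 was 0.55 and Dnm3 with Igf1r 0.54.

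The rest of the axis was read from a list of 36 further genes, of which 33 were tested and Ins2, Igfbp1 and Igfbpl1 were not analysed here. Between the sexes 23 of the 33 passed (69.7%, against 55% of all genes), 5 higher and 18 lower in males, and 10 did so with at least a 1.3-fold difference. The list includes Stc2, whose sex difference in these data was known when the list was written. Their median log2 difference was -0.10, against -0.01 over all genes. Across generations 10 of the 33 passed (30.3%, against 7.56% of all genes) and between blocks 14 (42.4%, against 47.4%). The interaction passed for 0 of the 33 in edgeR, DESeq2 and limma, with 2 below an unadjusted p of 0.05.

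The second ligand, Igf2, was lower in males (log2 difference -0.21, SE 0.029, adjusted p = 8.87e-12), as was Igf2r, which clears it (-0.12, SE 0.016, adjusted p = 1.5e-12). The insulin receptor gene Insr (0.03, SE 0.019, adjusted p = 0.168) did not pass, nor did Igfals, which stabilises IGF complexes in plasma (0.06, adjusted p = 0.345), or Igfbp2 (-0.33, adjusted p = 0.0811), whose median was 0.0875 CPM in females and 0.0874 in males.

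Of 6 proteases and protease inhibitors of the axis, 4 passed (66.7%, against 55% of all genes) and all 4 were lower in males, as were 30.6% of all genes. Pappa, the pappalysin that cleaves IGFBP4, differed by -0.49 (SE 0.043, adjusted p = 8.77e-26), and its median was 1.79 CPM in females and 1.25 CPM in males. Pappa2 differed by -0.42 (adjusted p = 3.74e-05), at low medians of 0.313 CPM in females and 0.250 CPM in males. Adam12 differed by -0.73 (adjusted p = 2.82e-15), with medians of 1.25 and 0.900 CPM. With the marker scores as covariates Adam12 differed by only -0.25 (adjusted p = 0.00145), Pappa by -0.43 and Pappa2 by -0.35. Stc2, a stanniocalcin that blocks pappalysins, differed most of the whole list, by -2.45 (SE 0.078, adjusted p = 5.34e-114), with 1.32, 7.03 and 40.8 CPM in females and 0.440, 1.38 and 6.64 CPM in males as lowest, median and highest. Htra1 (0.07, adjusted p = 0.109) and Stc1 (0.09, adjusted p = 0.195) did not pass.

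The growth hormone arm held differences in both directions. Cish, a target and inhibitor of STAT5 signalling, was at 0.611, 4.91 and 122 CPM in females and 0.720, 22.5 and 234.2 CPM in males, a log2 difference of 1.95 (SE 0.17, adjusted p = 1.01e-25). Socs2, an inhibitor of the same arm and the gene most like Igf1 between mice, was lower in males, with a log2 difference of -0.47 (SE 0.080, adjusted p = 5.45e-08). Its median was 14.8 CPM in females and 8.76 CPM in males. Both Cish and Socs2 ranged widely within each sex. The growth hormone receptor gene Ghr differed by -0.06 (adjusted p = 0.0138), and by 0.01 with the marker scores as covariates (adjusted p = 0.766).

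Within the cell, 10 of 14 relay genes passed (71.4%, against 55% of all genes), 3 higher and 7 lower in males. Irs2, a docking protein of the insulin and IGF1 receptors, was higher (0.54, SE 0.064, adjusted p = 4.35e-15). Grb10, an adaptor that restrains those receptors, was lower (-0.47, SE 0.021, adjusted p = 8.38e-74). Pik3r1, the regulatory subunit of PI3-kinase, differed by -0.53 (SE 0.037, adjusted p = 2.44e-37) and the transcription factor gene Foxo3 by -0.50 (SE 0.026, adjusted p = 1.27e-57). Akt1, Akt2, Mtor and Pdpk1 did not pass, with log2 differences between -0.02 and 0.03.

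**Figure D5:**
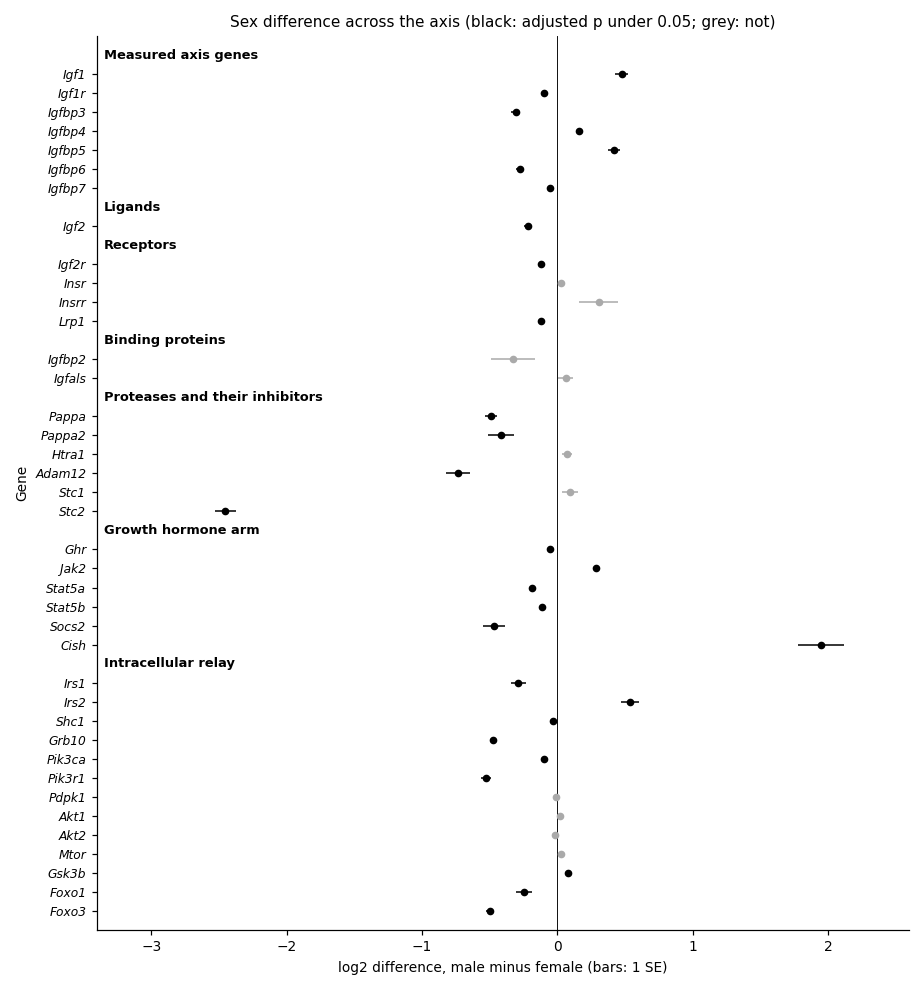
The log2 difference, male minus female, with 1 SE, of the 7 axis genes and of further genes of the axis grouped by role, black where the adjusted p was under 0.05 and grey where it was not. Stc2 (-2.45) and Cish (1.95) lie farthest from 0, and the Akt, Mtor and Pdpk1 points lie close to it.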

How the data were processed

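Skeletal muscle RNA of DO mice was sequenced from polyA-selected libraries, 1 library per mouse. The authors aligned both mates of each pair as single reads to a joined transcriptome of the founder strains and estimated gene totals with EMASE, in the GBRS package, against GRCm38 per the labels. Software versions are not given in the sources used here. The deposited tables hold these expected counts, without normalization, and a variance-stabilised score (VST) of the same genes made by the authors with DESeq2. The study's methods also describe taking out batch effects by regression. Whether the deposited scores carry that step is not given in the sources used here. Expected counts share reads between similar genes, and the authors had removed genes with few reads. Another deposited table gives gene positions in megabases (other values), which matched GENCODE M21 to the base for 99.5% of starts, and exon lengths came from GENCODE M21.

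Groups were read from the sample titles. Counts were rounded and tested with edgeR 4.0.16 (R 4.3.3; quasi-likelihood F-test, TMM scaling, filterByExpr with a minimum count of 10, Benjamini-Hochberg adjustment over all 18823 genes tested, threshold 0.05) with sex and generation in the model, and interaction or library block added for those tests. A new block started after a gap of more than 3 library numbers or after 96 numbers. CPM are TMM-scaled. Spread was tested with limma 3.58.1 on VST scores. DESeq2 1.42.0, limma on VST, total-count scaling, no filter, a minimum count of 100, library block, total count or 6 marker scores as covariates, and leaving out label-discordant libraries (females with Xist under 10 CPM or at least 3 Ddx3y counts, males with Xist at 10 CPM or more or Ddx3y under 10 CPM) were alternatives, as was leaving out the 4 libraries with Alb at 10 CPM or more, chosen after the data were seen. Marker scores are means of standardised log2 CPM. Pair correlations used 100000 permutations over mice, and Benjamini-Hochberg adjustment over 21 pairs. The sex, spread and correlation tests were checked on simulated data. All 7 genes are named, as are 9 further axis genes whatever their result (Igfbp1 was not analysed here), any other listed gene called with at least 1.3-fold, and for each of the 7 the 3 most alike and 1 most opposed genes. Other genes were named after their values were seen, and a few listed genes are not reported here. The genes and lists were chosen with earlier results of these data known. At a mean of 81.5 M counts per library (M, 10 to the power 6), 1 CPM is many counts, and the spread between mice sets the precision.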

Additional observations from a re-analysis of the deposited data

How the results depend on the processing

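The sex difference passed for all 7 genes under 9 of the 10 alternatives fitted to all mice, the exception being Igfbp7 with marker scores. Inside library block 2 it passed for 4 genes, where 21.6% of all genes did. Igfbp7 reversed in generation 19 (0.00963) and block 5 (0.0216). The generation difference passed for 1 gene with marker scores, for 0 inside each of blocks 1 to 5 and for 0 in males alone (2 in females alone), where fewer mice were fitted. The spread difference passed for 1 gene on log2 CPM. Of the pair correlations, 10 passed in males alone, and 5, 8, 5, 2 and 6 in blocks 1 to 5. Igf1 with Igfbp6 reversed in blocks 3 (0.0985) and 4 (0.00546), Igfbp3 with Igfbp6 without adjustment for sex and generation (0.0486) and in block 4 (0.0219), Igfbp3 with Igfbp7 in block 5 (-0.0358) and Igfbp5 with Igfbp7 with marker scores (-0.0541). The cause of these reversals was not tested. The counts called for the interaction, the block difference and the difference in r between the sexes moved by less than 1.5 times under every alternative run. No paired analysis was possible because the titles number mice and not replicates, so no number is shared between groups.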

Other observations

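Among the 20 genes most like each of the 7 between mice, several belonged to the same axis or to a marker list. Gsk3b was 18th for Igf1r (r = 0.44), Foxo3 19th for Igfbp3 (0.40) and the receptor Lrp1 4th for Igfbp6 (0.53). For Igfbp4 the 20 held 3 macrophage markers (Csf1r, C1qb and C1qa, r = 0.49, 0.47 and 0.47) and 2 adipocyte markers (Cidec and Adipoq, 0.48 and 0.46), and with the 6 marker scores taken out these r lay between 0.02 and 0.14. Those scores hold these very genes. For Igfbp5 the 20 held the tenocyte marker Kera (0.40). Over the 7 lists of 20, 2 genes lay within 4 Mb of the gene whose list held them. The share of all tested genes lying that near was not taken. Prkag3, 1881 kb from Igfbp5, had r = 0.43, and Mfsd5, 135 kb from Igfbp6, had r = 0.49. These genes were named after their values were seen, and the r over all mice are descriptions.

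In the 5 libraries in which either Xist or Ddx3y departed from the labelled sex, Igf1 was at 12.2, 12.3 and 12.1 CPM in the 3 labelled female and at 34.1 and 22.8 CPM in the 2 labelled male. Igfbp5 was at 427.3, 439.7 and 730.4 CPM in the 3 and at 960.3 and 1118 CPM in the 2. Of these libraries, 1 labelled female and 1 labelled male stand in each other's place in the otherwise almost numerical column order of the deposited tables, so which mouse their values belong to is uncertain.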
